A study of Mus musculus with 2 samples.

Results

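Levels of 9 nuclear genes that move or use adenine nucleotides at mitochondria were measured in poly(A)-selected RNA of adult mouse testis. They comprise the ADP carriers Slc25a4, Slc25a5 and Slc25a31, the porins Vdac1, Vdac2 and Vdac3, and the glycerol kinase genes Gk, Gk2 and Gykl1. Each was found by its unversioned gene identifier in the gene and transcript tables, and all 9 were present among 43346 Ensembl genes, of which 21474 are protein-coding. Both libraries came from testes of male C57BL/6J mice aged 8 weeks, which the labels call littermates and biological replicates 1 and 2, with no treatment named. The labels give both the same donor identifier, so an SD or interval may not cover spread between animals. They form 1 group, so no condition was compared with another.

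ADP carriers sit in the inner mitochondrial membrane and exchange ADP from the cytosol for ATP made in the matrix. Porins, also called voltage-dependent anion channels, let nucleotides and small metabolites through the outer membrane and bind hexokinase there. Glycerol kinase makes glycerol 3-phosphate from glycerol and ATP. In mouse, Slc25a31 is the carrier of male germ cells and is needed for meiosis, Vdac3 is needed for sperm motility, and Gk2 and Gykl1 are needed for an ordered mitochondrial sheath around the sperm tail.

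How far reads can be told apart between relatives was read from the annotated transcripts, because an estimated count shares out reads that fit more than 1 gene. Within the ADP carriers, coding sequences were 77.4% identical for Slc25a4 and Slc25a5, and 66.9% for Slc25a31 with either. The longest run of identical bases in any carrier pair was 21, well under the 76-base reads. The first 60 coding bases of each are given unaligned, so the lines do not measure these identities. Start codons are in capitals, on mm10 at chr3:40708992-40709051 (plus strand), chrX:36795731-36795790 (plus strand) and chr8:46210863-46210922 (minus strand).
Slc25a31: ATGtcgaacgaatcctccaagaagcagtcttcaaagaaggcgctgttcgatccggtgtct
Slc25a5: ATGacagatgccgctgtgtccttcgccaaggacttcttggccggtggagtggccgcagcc
Slc25a4: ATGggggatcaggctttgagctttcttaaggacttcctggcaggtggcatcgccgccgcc
Slc25a31 has 960 coding bases in 6 exons, against 894 in 4 exons for both Slc25a5 and Slc25a4.

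Porins were likewise distinct, with coding identities of 66.7% to 72.7% and a longest shared run of 17 bases. The glycerol kinases differ in structure. Gk2 and Gykl1 are single-exon genes, whereas the Gk transcript used for this comparison, Gk-208, has 20 exons. Coding sequences were 80.5% identical for Gk2 and Gk, 82.6% for Gykl1 and Gk, and 77.5% for Gk2 and Gykl1. Gk2 and Gk share 1 run of 76 identical bases, as long as a read, which in Gk crosses from exon 15 to exon 16. It is shown in capitals with 24 bases on each side, from chr5:97455713-97455788 and from chrX:85712673-85713302 with the intron left out, both on the minus strand of mm10.
Gk2: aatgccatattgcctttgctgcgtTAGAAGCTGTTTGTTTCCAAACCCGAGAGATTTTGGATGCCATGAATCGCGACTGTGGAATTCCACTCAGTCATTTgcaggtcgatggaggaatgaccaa
Gk: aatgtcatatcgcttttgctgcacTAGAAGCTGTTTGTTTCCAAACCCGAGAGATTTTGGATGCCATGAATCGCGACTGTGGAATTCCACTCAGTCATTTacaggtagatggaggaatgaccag

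Marker genes were read in each library for cell types of the testis and of other tissues. All 10 genes of each of 4 germ cell lists, 9 of 10 Sertoli genes and all 8 Leydig genes reached a TPM (transcripts per 1e6, a level per length) of 1 in each library. So did all 9 peritubular, 7 of 9 macrophage, 6 of 7 endothelial, 5 of 7 red blood cell and 5 of 7 fat genes. Only 2 of 10 skeletal muscle and 1 of 11 epididymis genes did, against 62.1% of protein-coding genes. All 10 Sertoli genes were higher in replicate 2, which had a summed TPM of 1882, against 1458 in replicate 1. Most of each sum was Clu, at 1524 in replicate 2 and 1193 in replicate 1. The 10 meiotic genes summed to 644 in replicate 2 and 607 in replicate 1, the 10 round spermatid genes to 5760 and 5377, and the 10 elongating spermatid genes to 71726 and 75784. Of the elongating genes 4 were higher and 6 lower in replicate 2, and Prm1, at 13121 and 17056 TPM, made most of the gap. Of the meiotic and of the round spermatid genes, 8 were higher and 2 lower. All 9 peritubular genes were lower in replicate 2, with sums of 177 in replicate 2 and 342 in replicate 1, though Pdgfra was nearly equal at 2.86 and 2.96. The 11 epididymis genes summed to 3.77 in replicate 2 and 754 in replicate 1, led by Crisp1 at 0.20 and 454 TPM. Of these 11, 7 were lower and 3 higher in replicate 2. In replicates 2 and 1, Spink8 stood at 0.25 and 194 TPM, Defb28 at 0 and 96, and Adam7 at 0 and 6.87. Rnase10 went the other way, at 3.23 and 2.42. Lcn5 and Lcn8 were at 0 in replicate 2 but only at 0.11 and 0.06 in replicate 1. Lcn10 was at 0 in both, and Lcn9 and Adam28 were at 0 in replicate 1 and at 0.04 and 0.03 in replicate 2. The 10 skeletal muscle genes summed to 11.2 in replicate 2 and 28.7 in replicate 1, with Tnni2 at 0 in replicate 2 and Pvalb in replicate 1. Acta1, at 0.66 and 13.3 TPM, and Ckm, at 1.20 and 5.47 TPM, made most of that gap, while Actn3 stood at 7.67 TPM in both and Myh1 at 0.26 and 0.18. The 7 fat genes summed to 33.3 in replicate 2 and 49.7 in replicate 1. In a tissue sample fewer cells of a type and less RNA per cell cannot be told apart, and the part of these cells in the levels of the 9 genes was not tested.

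Detection was set at a TPM of 1 or more in each library, which 8 of the 9 genes, all but Gk, reached. By the same rule 62.1% of protein-coding genes and 35.8% of all genes were detected. The 8 also lay above the protein-coding median of 3.58 (median over genes of the mean TPM). Vdac2 had the highest level at 364 ± 23.4, followed by Gk2 at 213 ± 17.3, Gykl1 at 142 ± 17.5 and Vdac3 at 132 ± 19.7 (TPM, SD, n = 2). Slc25a5 followed at 56.1 ± 0.375, Slc25a31 at 32.4 ± 3.33, Slc25a4 at 32.3 ± 3.31, Vdac1 at 13.2 ± 1.71 and Gk at 0.970 ± 0.523 (TPM, SD, n = 2). Of the 8 pairs of neighbours in this order, 6 had no overlap between the libraries of one gene and those of the other. Gykl1 with Vdac3, and Slc25a31 with Slc25a4, overlapped. Within each library Gykl1 was above Vdac3, at 1.10 times in replicate 1 and 1.06 times in replicate 2. Slc25a31 over Slc25a4 changed order, at 0.868 and 1.16.

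**Figure D1:**
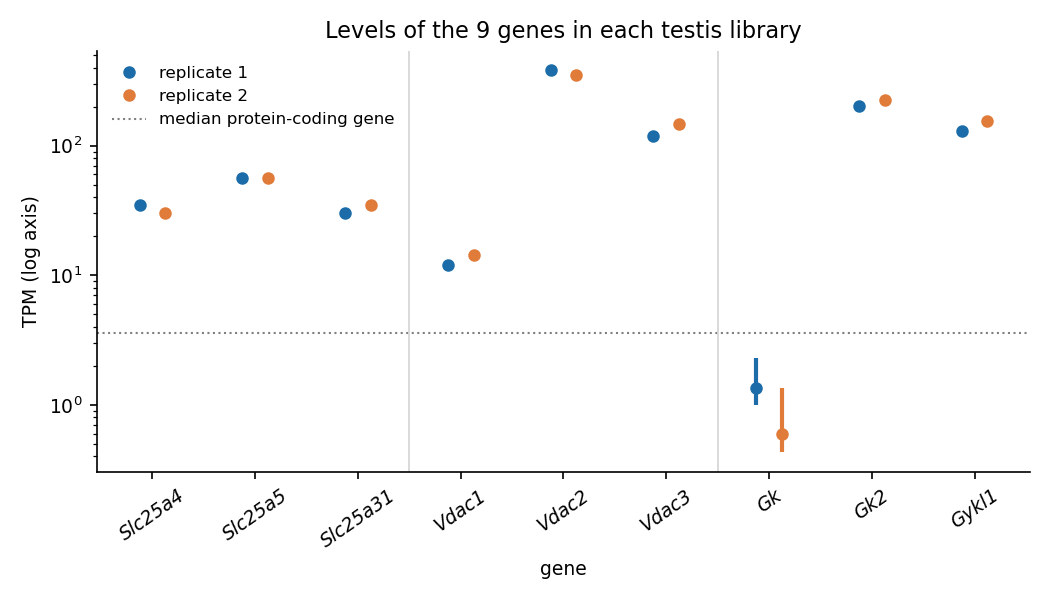
TPM on a log axis for each of the 9 genes in replicates 1 and 2, with lines for the authors' deposited interval on TPM and a dotted line at the median protein-coding gene (3.58). Gk is the only gene below the dotted line, and Vdac2 is the highest.

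The 3 ADP carriers summed to 120.6 TPM in replicate 1 and 121.1 TPM in replicate 2. Slc25a5 (ENSMUSG00000016319.3, chrX:36795651-36798807, plus strand), the carrier of most dividing cells, measured 55.9 TPM in replicate 1 and 56.4 TPM in replicate 2. These are nearly equal, and each lies inside the deposited interval of the other, 53.2 to 57.8 and 53.8 to 58.2. Slc25a5 held 46.5% ± 0.158 of carrier TPM (SD, n = 2). It is X-linked, and its mean of 56.1 stood above the median of 5.48 over the 496 detected X-linked protein-coding genes. It also stood above the median of 13.4 over 12795 detected autosomal ones.

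Slc25a31 (ENSMUSG00000069041.6, chr3:40708855-40726096, plus strand), the germ cell carrier, measured 30.1 TPM in replicate 1 and 34.8 TPM in replicate 2. The deposited intervals, 28.4 to 31.2 and 33.0 to 35.9, did not overlap, so replicate 2 was higher beyond the error of estimation. Slc25a4 (ENSMUSG00000031633.4, chr8:46206797-46211284, minus strand), the carrier of heart and skeletal muscle, measured 34.6 TPM in replicate 1 and 29.9 TPM in replicate 2. Its order was the opposite, with replicate 1 higher and intervals of 32.7 to 36.1 and 28.2 to 31.3. Slc25a31 over Slc25a4 was therefore 0.868 in replicate 1 and 1.16 in replicate 2, which sets neither above the other.

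Much of the Slc25a4 value came from a transcript annotated as retaining an intron. Slc25a4-202 had 20.5 TPM in replicate 1 and 13.4 TPM in replicate 2, or 59.1% and 44.6% of the gene. The coding transcript Slc25a4-201 had 14.2 and 16.6, so the leading transcript differed between the libraries. Slc25a4-202 lacks the last exon of Slc25a4-201 and runs 428 bases into the last intron, at chr8:46207970-46208397. Among 5093 detected protein-coding genes with an annotated retained-intron transcript, such transcripts held a median of 6.61% of TPM in replicate 1 and 6.67% in replicate 2. They held over 40% in both libraries in 532 of these genes (10.4%), of which Slc25a4 was 1.

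Counting transcripts of coding type only, a choice made after these values were seen, gave another order. For Slc25a31 only a coding transcript was quantified, so this rule could lower Slc25a4 and Slc25a5 but not Slc25a31. Slc25a31 then had 2.12 times the TPM of Slc25a4 in replicate 1 and 2.10 times in replicate 2. The 3 carriers had shares of 52.8% ± 2.15 for Slc25a5, 32.0% ± 1.37 for Slc25a31 and 15.2% ± 0.774 for Slc25a4 (SD, n = 2), with no overlap between genes. Over all transcripts, Slc25a31 and Slc25a4 had 26.8% ± 2.67 and 26.7% ± 2.83 (SD, n = 2).

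**Figure D2:**
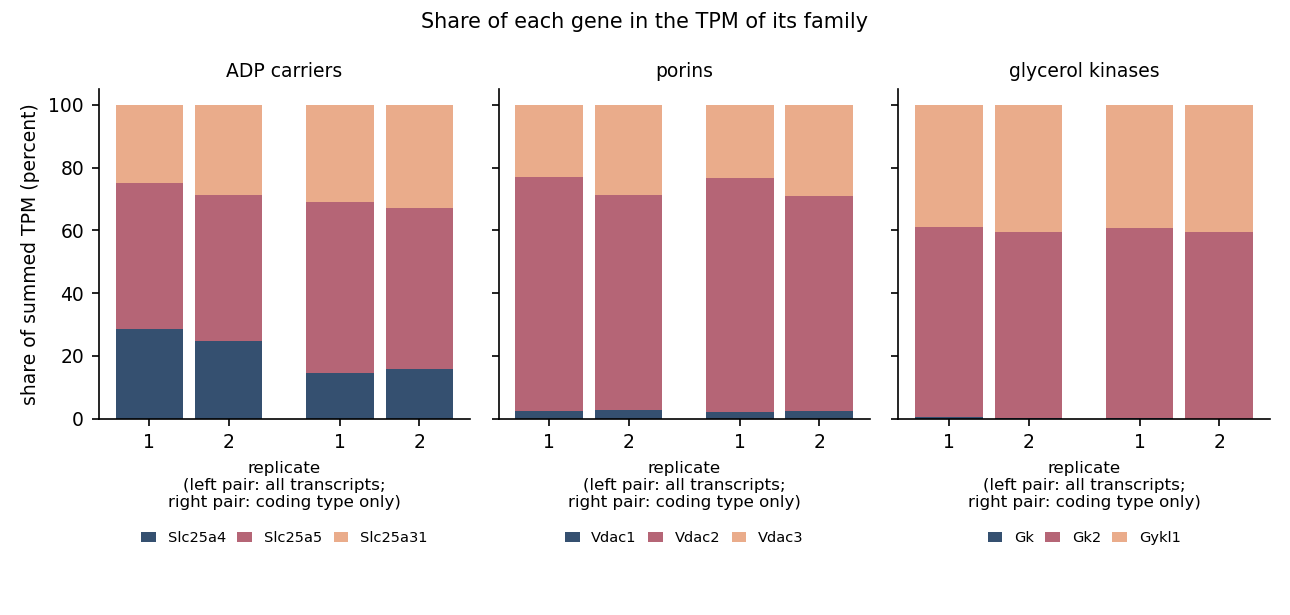
Percent of the summed TPM of each family held by each of its 3 genes, in replicates 1 and 2, over all transcripts (left pair of bars) and over transcripts of coding type (right pair). The share of Slc25a4 is 28.7% and 24.7% over all transcripts and 14.6% and 15.7% over coding ones, while porins and glycerol kinases look alike in both pairs.

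Porins were the most abundant of the 3 families, with a summed TPM of 511 in replicate 1 and 508 in replicate 2. Vdac2 (ENSMUSG00000021771.9, chr14:21825238-21845879, plus strand), which also holds the cell death protein BAK at the outer membrane, had 381 TPM in replicate 1 and 348 TPM in replicate 2. Vdac3 (ENSMUSG00000008892.7, chr8:22577075-22593813, minus strand) had 118 and 146. Vdac1 (ENSMUSG00000020402.7, chr11:52360860-52389397, plus strand), the main porin of many somatic tissues, had 12.0 and 14.4. The 3 genes kept 1 order in both libraries with no overlap.

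Vdac2 had 3.23 times the TPM of Vdac3 in replicate 1 and 2.38 times in replicate 2. It had 31.7 and 24.1 times that of Vdac1. Its share of porin TPM was 71.5% ± 4.32, against 25.9% ± 3.97 for Vdac3 and 2.6% ± 0.345 for Vdac1 (SD, n = 2).

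The level of Vdac2 was divided between a long and a short transcript. Vdac2-201, with the full coding sequence of 885 bases, had 71.4% of the gene's TPM in replicate 1 and 69.5% in replicate 2. Vdac2-207, whose annotated coding part of 604 bases is incomplete, had 26.8% and 29.0%. Every base of Vdac2-207 also lies in an exon of Vdac2-201, and it differs by an intron spliced out of exon 1 and an end within exon 8 of Vdac2-201. None of the other 7 annotated Vdac2 transcripts reached 1% of TPM in either library. For Vdac1 the full transcript Vdac1-202 held 92.7% in replicate 1 and 87.4% in replicate 2, and the intron-retaining ENSMUST00000153339.1 held 5.27% and 10.3%, from 11.2 and 26.9 counts.

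Vdac3 has an annotated variant that adds 3 bases, and so 1 codon, at the end of exon 3, which spans chr8:22587550-22587602 in the longer form on the minus strand. The lines show 30 bases on each side of that exon end in the spliced transcripts, with the added bases in capitals.
Vdac3-202: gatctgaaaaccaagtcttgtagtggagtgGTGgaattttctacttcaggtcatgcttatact
Vdac3-201: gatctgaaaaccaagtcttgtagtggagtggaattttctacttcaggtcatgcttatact
The shorter form, with 849 coding bases, had 114.8 TPM in replicate 1 and 143.7 TPM in replicate 2. The longer form, with 852, had 3.31 and 2.31, from 163 and 118 expected counts. It thus held 2.81% of Vdac3 TPM in replicate 1 and 1.58% in replicate 2, a small part in both. The window with the added bases occurs in no other annotated transcript, while the shorter window also occurs in a retained-intron transcript of Vdac3 and in the pseudogene Vdac3-ps1.

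**Figure D3:**
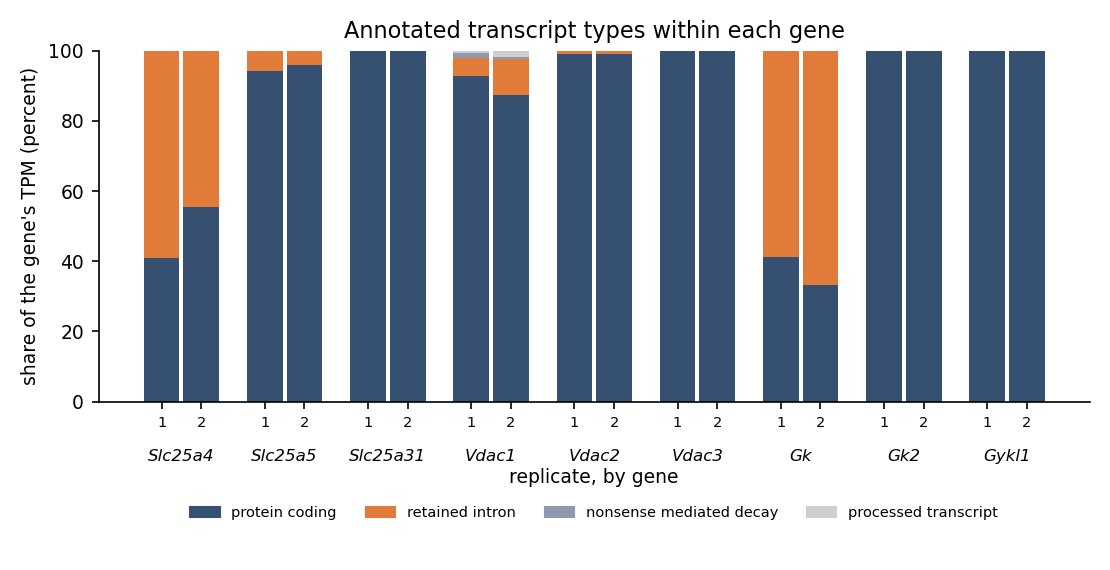
Percent of each gene's TPM in transcripts annotated as coding, retained intron, nonsense-mediated decay or processed transcript, with 1 bar for each replicate. Slc25a4 and Gk have large retained-intron parts (59.1% and 44.6% in replicates 1 and 2 for Slc25a4, 58.6% and 66.7% for Gk). For Slc25a31, Vdac3, Gk2 and Gykl1 only transcripts of coding type were quantified, so no other part could show. The retained-intron parts of Gk rest on 13 and 6.9 counts, against 91 and 33.1 counts for its coding types.

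Glycerol kinase transcripts came almost wholly from the single-exon copies. Gk2 (ENSMUSG00000050553.2, chr5:97455142-97457021, minus strand) had 200.8 TPM in replicate 1 and 225 TPM in replicate 2. Gykl1 (ENSMUSG00000053624.3, chr18:52693690-52695550, plus strand) had 129 and 154. Gk (ENSMUSG00000025059.12, chrX:85701937-85776819, minus strand), the enzyme of liver and other somatic tissues, had 1.34 and 0.600. The 3 ranges do not overlap, and both copies were higher in replicate 2 while Gk was higher in replicate 1.

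Gk2 held 59.9% ± 0.912 of the family's TPM, Gykl1 39.8% ± 1.09 and Gk 0.281% ± 0.174 (SD, n = 2). Gk2 over Gykl1 was 1.55 in replicate 1 and 1.46 in replicate 2. Gk2 over Gk was 150 and 375, a wide range that rests on 104 and 40 counts of Gk. The deposited intervals on the TPM of Gk, 1.00 to 2.31 in replicate 1 and 0.429 to 1.34 in replicate 2, overlap.

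Of the small Gk level, most fell on short retained-intron transcripts with very few counts. Transcript ENSMUST00000122950.3 took 38.95% of Gk TPM in replicate 1 and 44.2% in replicate 2, from 6.84 and 3.56 counts. ENSMUST00000124386.1, likewise of retained-intron type, took 19.8% and 23.3%, from 6.16 and 3.34 counts. The coding transcripts Gk-208 and Gk-201 had 52.9 and 38.1 counts in replicate 1, and 29.96 and 3.13 in replicate 2. The coding types together reached 0.55 TPM in replicate 1 and 0.20 TPM in replicate 2. The 76-base run shared with Gk2 lies in ENSMUST00000122950.3 and in all 4 coding Gk transcripts, beside 13344 and 15575 counts for Gk2. The deposited posterior SD of the gene count, which reflects reads shared out between genes, was 0 for Gk in both libraries, and 0.48 in replicate 1 and 0 in replicate 2 for Gk2.

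The promoters of Gk2 and Gk differ in CpG pairs, which are rare in most of the genome. RefSeq windows on GRCm38.p6 from 250 bases before to 50 after a start were matched for 6 of the 9 genes, and none was used for Vdac2, Vdac3 and Gykl1. Those of Gk2 (chr5:97456974-97457273, minus strand) and Gk (chrX:85776770-85777069, minus strand), the single-exon copy with the high level and its multi-exon relative with the low one, are shown with CpG in capitals.
Gk2 promoter: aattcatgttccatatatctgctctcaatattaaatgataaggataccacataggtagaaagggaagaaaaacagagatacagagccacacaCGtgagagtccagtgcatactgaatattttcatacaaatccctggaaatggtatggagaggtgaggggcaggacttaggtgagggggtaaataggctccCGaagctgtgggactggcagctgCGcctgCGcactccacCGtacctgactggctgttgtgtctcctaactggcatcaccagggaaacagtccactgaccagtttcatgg
Gk promoter: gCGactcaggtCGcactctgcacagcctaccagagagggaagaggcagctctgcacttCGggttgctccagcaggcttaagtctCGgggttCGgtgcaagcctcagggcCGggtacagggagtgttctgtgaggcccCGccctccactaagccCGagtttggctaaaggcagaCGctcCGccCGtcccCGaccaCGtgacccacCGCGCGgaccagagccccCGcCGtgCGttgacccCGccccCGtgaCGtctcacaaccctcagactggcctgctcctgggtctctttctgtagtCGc
The Gk2 window holds 5 CpG pairs, the Gk window 23 and the Slc25a31 window 22, against a median of 7 over 32851 windows. Of all windows, 38.0% hold fewer than that of Gk2, and a link of CpG pairs to level was not tested. Windows of the remaining 3 matched genes hold 18 in Slc25a5, 25 in Slc25a4, and 24 and 26 at the 2 starts of Vdac1. Of 3 motifs searched on both strands, the letters TTCCCGC, an E2F-type core, occur in the Slc25a31 window and in 4.60% of all windows. The letters TGACGT, part of a cAMP response element, occur in the Gk window, in 1 Vdac1 window and in 7.51% of all windows. TATAAA occurs in no window of the 6 genes and in 13.6% of all windows.

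Near-copies among the annotated transcripts of other genes took few reads where they were measured. Transcripts of other genes matching a member over at least 200 bases at 90% identity or more came from 7 pseudogenes for Slc25a5, 2 for Vdac1, 1 for Vdac2 and 2 for Vdac3. The 7 Slc25a5 copies summed to 0.160 TPM in replicate 1 and 0.300 TPM in replicate 2. Vdac3-ps1, 99.5% identical to Vdac3 over 853 bases, had 3.36 TPM in replicate 1 and 3.45 TPM in replicate 2, or 2.58% and 2.14% of the Vdac3 count. The copies Gm7832 of Vdac2 and Gm7591 of Vdac3 have no value used here, so no copy of Vdac2 was measured. On the opposite strand, Comtd1 overlaps Vdac2 with 5.22 TPM in replicate 1 and 5.52 TPM in replicate 2, and the noncoding 4930467D21Rik overlaps Gk2 with 0.90 and 1.48. The libraries are stranded, and whether the counting used strand is not stated.

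The libraries were compared next, as log2 ratios of replicate 2 over replicate 1 of counts scaled by TMM (trimmed mean of M-values), with 95% exact binomial intervals that cover counting error only. Total expected counts were 50374324 in replicate 1 and 52788929 in replicate 2. Intervals lay above 0 for 5 of the genes, and for 26.1% of the 19534 genes whose count reached 10 in each library. The 5 were Vdac3 at 0.29 (0.24 to 0.34), Gykl1 at 0.23 (0.19 to 0.27), Slc25a31 at 0.19 (0.098 to 0.28), Vdac1 at 0.18 (0.046 to 0.31) and Gk2 at 0.15 (0.11 to 0.18). Intervals lay below 0 for 3 of the genes, and for 25.6% of the 19534. The 3 were Gk at -1.46 (-2.02 to -0.92), Vdac2 at -0.17 (-0.20 to -0.14) and Slc25a4 at -0.13 (-0.23 to -0.038). The interval of Slc25a5 held 0.

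Gk was the only one of the 9 past 2-fold, which 3.92% of the 19534 genes were. The other 8 were smaller in size than 0.91, the 95th percentile of the absolute log2 ratio over those genes, and 6 of them lay below its median of 0.20. For Slc25a4 the lower gene total in replicate 2 came with fewer counts of the retained-intron transcript, 601 in replicate 2 against 886 in replicate 1, while the coding transcript had more, 1201 against 986. The spread between libraries beyond counting, as the biological coefficient of variation from edgeR, was 0.183 over all these genes. Each ratio has a single library on each side, so it has no replicate check.

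**Figure D4:**
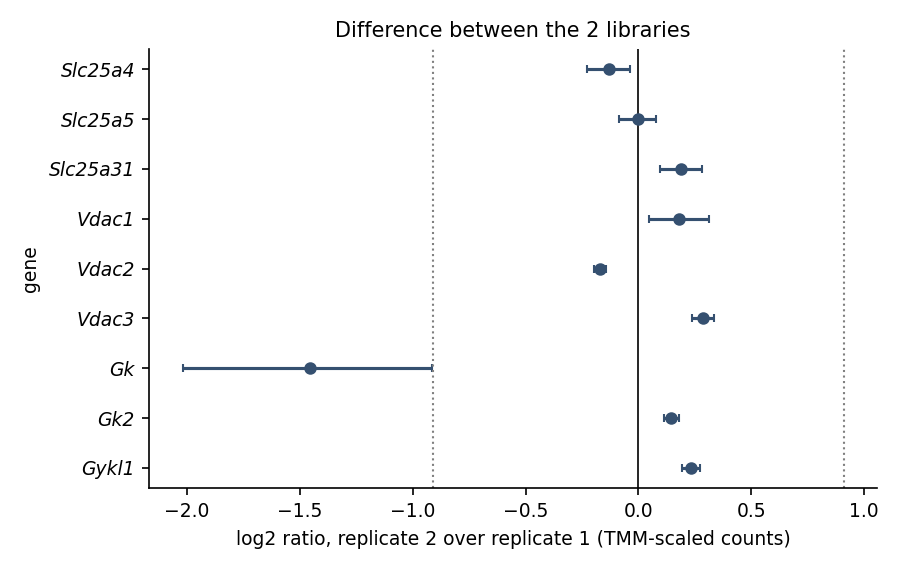
Log2 ratio of replicate 2 over replicate 1 for each gene, from TMM-scaled counts, with 95% counting intervals and dotted lines 0.91 to either side of 0, the 95th percentile over 19534 genes. Gk alone lies outside the dotted lines, and Slc25a4, Vdac2 and Gk have intervals wholly below 0.

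Related pathway lists place these levels. Each list median in the text is the mean of the medians in the 2 libraries, with their SD. The 11 listed SLC25 carriers of nucleotides, phosphate and cofactors, all mitochondrial but the peroxisomal Slc25a17, passed the detection rule, and their median lay at 10.6 ± 0.488 TPM (SD, n = 2). Highest was Slc25a3, which imports the phosphate for ATP synthesis, at 131 ± 4.81, close to the 120.8 ± 0.396 of the 3 ADP carriers summed. Slc25a33, a pyrimidine nucleotide carrier, followed at 49.9 ± 1.70 and Slc25a41, an ATP-Mg and phosphate carrier, at 41.0 ± 2.31. Slc25a24, another ATP-Mg carrier, was lowest at 2.76 ± 0.0566 (all SD, n = 2). The 16 ATP synthase genes, none of them undetected, had their median at 139 ± 12.3 TPM, and highest were Atp5b at 729 ± 32.7, Atpif1 at 288 ± 5.71 and Atp5e at 279.7 ± 44.8, with Atp5k lowest at 38.8 ± 1.63 (SD, n = 2).

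Outer membrane partners of the porins passed for 15 of 17 genes, and their median stood at 17.6 ± 1.27 TPM (SD, n = 2). Highest was the hexokinase gene Hk1 at 759 ± 1.5. That value is for the whole gene, its transcripts were not read apart, and binding to porins was not tested. The import genes Mtx1 at 441 ± 34.3 and Tomm22 at 307 ± 29.7 followed. Hk3 and the mitochondrial creatine kinase gene Ckmt1 fell under a TPM of 1 in 1 library each, with Ckmt1 lowest at 1.02 TPM in replicate 1 and 0.260 TPM in replicate 2. Fusion and fission genes, 8 of 8 detected, had a median of 18.4 ± 3.31 (SD, n = 2). They were led by Mff at 159.7 ± 17.1, Mfn2 at 129.6 ± 8.91 and Fis1 at 64.8 ± 4.40, with the protease gene Oma1 lowest at 1.89 ± 0.191 (SD, n = 2).

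In glycerol metabolism all 15 other listed genes passed, and the median was 32.6 ± 3.05 TPM (SD, n = 2). Pgp, whose product removes the phosphate from glycerol 3-phosphate, led at 1568 ± 256, ahead of the lipase genes Pnpla2 at 353 ± 27.7 and Lipe at 209 ± 3.52 (SD, n = 2). Gk5, the remaining relative of glycerol kinase in the list, was lowest at 2.6 ± 0.396, above Gk in both libraries with 2.32 in replicate 1 and 2.88 in replicate 2. All 9 sperm mitochondrial sheath genes passed, and the median was 174 ± 6.70 TPM. Levels ran from Smcp at 3834 ± 160, Gpx4 at 3241 ± 183 and Armc12 at 532 ± 7.66 down to the prohibitin gene Phb at 17.8 ± 0.919 (SD, n = 2). Pld6, a mitochondrial surface enzyme that binds the Gk2 and Gykl1 proteins in mouse, stood at 89.95 in replicate 1 and 95.4 in replicate 2, below both kinase copies.

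**Figure D5:**
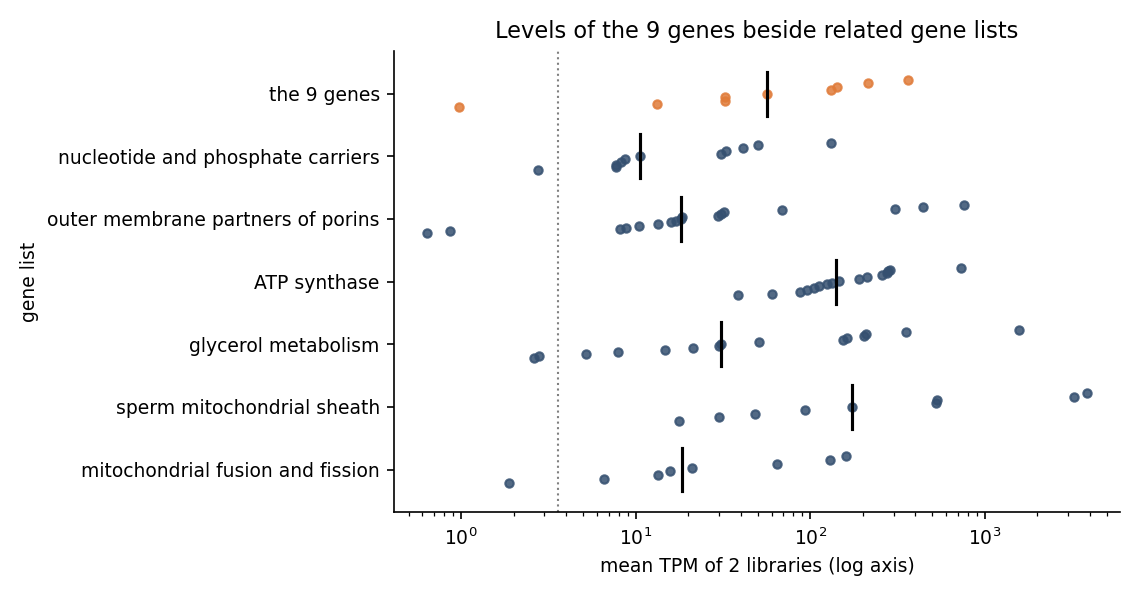
Mean TPM over the 2 libraries, on a log axis, of each of the 9 genes and of each gene in 6 related lists, with a bar at each median and a dotted line at the median protein-coding gene (3.58). Bars are medians of the mean TPM of each gene, 18.1 for the outer membrane partners and 30.7 for glycerol metabolism. The median of the 9 is 56.1, under the medians of the ATP synthase list (139) and the sheath list (174) and above those of the other 4.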

How the data were processed

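RNA over 200 nucleotides was poly(A)-selected and read as stranded 76-base pairs, per the labels. Per the file headers, the deposited expected count is an estimated read count per gene or transcript, not normalised. The authors' TPM scales it by length to 1e6, and the deposited percent gives each transcript's part of its gene's TPM. Assembly mm10 and annotation M4 are per the deposited readme. For the aligner and quantifier, the names are not given in these sources. Bounds of the deposited interval on TPM were used as given, and their level is not stated. Spike-ins stayed out of scaling. Junction and contig files on mm9 were not used.

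GENCODE M21, also on mm10, supplied symbols, positions and transcript types and matched 42462 of 43346 genes. Transcript versions differ from M4 for some genes, so lengths of coding parts are those of M21. Rounded expected counts were scaled with TMM in edgeR 4.0.16 (R 4.3.3), with DESeq2 1.42.0 as an alternative. The steps were tested on simulated data. Alternatives used posterior mean TPM, other detection thresholds, other scalings and count filters, shares of counts, and each library alone. Near-copies were found with BLAST 2.17.0. Identities came from global alignment in Biopython 1.88.

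The 9 genes and all lists were chosen with earlier results of these data known. Named are the 9 genes, their transcripts from 5% of TPM, the 3 highest and the lowest gene of each pathway list, and Gk5. Hk3, Pld6, Slc25a17, Vdac3-202, the cell type genes and the overlapping and near-copy genes were added after their values were seen. For cell type lists sums are given, with Crisp1, Spink8, Rnase10, Clu, Pdgfra, Prm1, 4 muscle genes and genes at 0. The genes at 0 also include Slc4a1 of the red blood cell list in replicate 1. Spermatogonial, Leydig, macrophage, endothelial and red blood cell genes summed to a TPM of 136.5, 4520, 55.3, 66.0 and 218 in replicate 1 and of 140.5, 5603, 50.9, 51.2 and 198 in replicate 2. With 2 libraries of 1 group no pattern over conditions exists, so no gene was named for a like pattern.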

Additional observations from a re-analysis of the deposited data

How the results depend on the processing

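Of 172 alternative values over 38 results, 22 moved past the spread between libraries or, for ratios, the counting interval. Levels and shares from a single library could not move past an SD of 2 libraries, so they say nothing of stability. The log2 ratio of Slc25a5, near 0 throughout, changed sign to 0.0030 with library totals and 0.014 as a ratio of TPM, against -0.0035. The 9 members had 8 detected in every alternative except 9 at a TPM of at least 0.5 or without replicate 2. Pathway list genes detected numbered 74, and 69 to 75 in the alternatives. Shares of expected counts, which favour long transcripts, were 30.2% for Slc25a4, 38.7% for Slc25a5, 31.1% for Slc25a31, 3.15% for Vdac1, 57.9% for Gk2 and 41.8% for Gykl1. Over transcripts of coding type, chosen after seeing the data, shares were 15.2% for Slc25a4, 52.8% for Slc25a5 and 32.0% for Slc25a31. Rescaling TPM over nuclear protein-coding genes raised the mean of 8 genes past their SD, from 15.7 for Vdac1 to 431 for Vdac2. The biological coefficient of variation was 0.211 with at least 1 count in both libraries and 0.138 with at least 100. No paired analysis was possible because the samples form a single group. Depth limits Gk most, with 104 and 40 counts.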
